A study of Saccharomyces cerevisiae with 8 samples.

Results

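Loci crowded with MCM2-7 events are short stretches of the yeast genome in which many binding events of the replicative helicase MCM2-7 were listed side by side. They were selected on the MCM2-7 events themselves. The events of 6 deposited ChIP-Exo lists were pooled and events up to 250 bp apart were chained into loci, and a locus was counted as crowded when the MCM2-7 lists of both replicates together held 15 or more events in it. Of 355 loci, 43 were crowded (12.1% of the loci and 13.6% of their summed span), and 312 held fewer than 15 MCM2-7 events. The crowded loci held 373 of the 1982 MCM2-7 events of replicate 1 and 329 of the 1723 of replicate 2. The number of MCM2-7 events, their density and their extent in these loci follow from that choice and are given as a description.

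The lists come from *Saccharomyces cerevisiae* W303, a laboratory strain, in which Mcm4 (strain YC779) or Orc2 (strain YC795) carried a FLAG tag at its own gene. Mcm4-FLAG was measured in G1-phase, in cells arrested with the mating pheromone alpha-factor. Orc2-FLAG was measured in the same arrest (G1-phase) and in cells arrested with nocodazole, which depolymerises microtubules and holds cells in G2/M-phase. That arrest is called G2-phase here, as in the sample labels. Each of the 3 conditions had 2 biological replicates. In ChIP-Exo the immunoprecipitated DNA is trimmed by an exonuclease up to the cross-linked protein, and an event is a single base at which the event caller placed a bound protein. Every group carries the tag used for its own immunoprecipitation, and lists of an untagged strain were not used here.

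MCM2-7 is the hexameric helicase that unwinds DNA in S-phase. In G1-phase the origin recognition complex (ORC), together with Cdc6 and Cdt1, loads it as an inactive double hexamer (DH) that encircles double-stranded DNA. In budding yeast ORC binds autonomously replicating sequences (ARSs) through the ARS consensus sequence (ACS), an AT-rich motif of 11 bases, and remains on DNA in G2-phase, when loading is blocked.

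The stretches below show what is meant by a crowded locus at base level, in the R64 (sacCer3) sequence of RefSeq, which is that of strain S288C and not of W303. In each, capitals mark the bases at which an MCM2-7 event of either replicate was placed, and the 300 bases are those that hold the most such positions. At ARS208 (chrII:237757-238056) 17 of the 20 positions lie in the stretch, at ARS1220 (chrXII:659771-660070) 15 of 19, and at ARS434 (chrIV:1276105-1276404) 14 of 18. All are read on the plus strand.

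ARS208: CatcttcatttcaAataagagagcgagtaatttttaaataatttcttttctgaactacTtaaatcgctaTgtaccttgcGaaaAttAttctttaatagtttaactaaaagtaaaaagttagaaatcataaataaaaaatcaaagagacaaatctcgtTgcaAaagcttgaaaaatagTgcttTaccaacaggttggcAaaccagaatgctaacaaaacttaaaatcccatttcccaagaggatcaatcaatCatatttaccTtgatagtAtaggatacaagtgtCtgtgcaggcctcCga
ARS1220: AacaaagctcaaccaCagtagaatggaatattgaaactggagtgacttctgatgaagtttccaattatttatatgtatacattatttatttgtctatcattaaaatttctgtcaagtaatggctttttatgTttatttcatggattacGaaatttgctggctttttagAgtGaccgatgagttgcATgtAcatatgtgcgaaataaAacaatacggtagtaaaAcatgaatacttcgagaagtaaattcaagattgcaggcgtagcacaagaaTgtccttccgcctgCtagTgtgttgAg
ARS434: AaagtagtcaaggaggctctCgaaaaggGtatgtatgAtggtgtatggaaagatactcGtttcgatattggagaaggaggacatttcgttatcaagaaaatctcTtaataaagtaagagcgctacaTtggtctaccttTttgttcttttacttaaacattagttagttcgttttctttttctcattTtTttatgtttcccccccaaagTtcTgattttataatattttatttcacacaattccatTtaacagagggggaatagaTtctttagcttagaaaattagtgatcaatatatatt

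The capitals form no single block. At ARS208 they stand near both ends of the stretch and in groups between them, whereas at ARS1220 a run of more than 100 bases near the left end holds none and most positions lie to the right of it. The same bases were rarely placed in both replicates: of the 373 bases of replicate 1 and the 329 of replicate 2 in the crowded loci, 17 were identical, against 38 identical bases among 1609 and 1394 in the other loci.

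The ACS was searched in the same genome on both strands, and the best match of the 6 loci with the most MCM2-7 events is printed with 10 bases on either side and the ACS match in capitals. ARS1220 held a full match of 11 bases, and the other 5 loci held matches of 10 bases. Where several matches were equally good, the one closest to the median MCM2-7 position is shown: ARS208 had 4, and ARS601/ARS602 and ARS1407 had 2 each.

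ARS208: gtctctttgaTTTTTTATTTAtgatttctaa
ARS601/ARS602: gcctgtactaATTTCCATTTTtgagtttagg
ARS1220: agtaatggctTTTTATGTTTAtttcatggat
ARS434: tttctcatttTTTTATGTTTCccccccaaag
ARS1226: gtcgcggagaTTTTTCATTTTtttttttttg
ARS1407: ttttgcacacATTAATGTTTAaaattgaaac

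These matches lie at chrII:237874-237904 on the minus strand for ARS208 and on the plus strand for the rest, at chrVI:32698-32728 for ARS601/ARS602, chrXII:659885-659915 for ARS1220, chrIV:1276282-1276312 for ARS434, chrXII:793981-794011 for ARS1226 and chrXIV:89684-89714 for ARS1407. At ARS1220 the centre of the match was 2 and 42 bp from the nearest MCM2-7 event of replicates 1 and 2. At ARS434 these distances were 6 and 4 bp, and at ARS208 they were 29 and 25 bp. The distance from the match to the nearest ORC event of a list ran between 0 and 94 bp over the 6 loci. ARS1407 had the shortest distances, 2 and 2 bp in the G1 lists and 1 and 0 bp in the G2 lists. The longest were 94 bp at ARS1226 in G2 replicate 1, 50 bp at ARS208 in G1 replicate 2 and 49 bp at ARS601/ARS602 in G2 replicate 2. These loci hold many ORC events, and distances from other positions were not compared. At ARS1226 the match stood at the left end of the locus, 0 and 82 bp from the nearest MCM2-7 event.

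A full ACS match was found in the 300 bp around the midpoint of 13 of the 43 crowded loci (30.2%, 95% Wilson interval 18.6 to 45.1) and of 121 of the 312 other loci (38.8%, 33.5 to 44.3). These intervals overlap. Over all 40229 windows of 300 bp that tile the genome the share was 1.88%. At least 10 matching bases were found in 41 crowded loci (95.3%, 84.5 to 98.7) and in 272 other loci (87.2%, 83.0 to 90.4), against 26.8% of all windows. The crowded loci without such a match in this window were ARS1226 and ARS1410. The match printed above for ARS1226 stands at the left end of the locus, outside the window. A match describes the letters in the window only.

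The crowded loci held 15 to 20 MCM2-7 events, with a median of 16. Of the 43, 14 held exactly 15 events, 16 held 16, 6 held 17, 2 held 18, 2 held 19 and 3 held 20. Replicate 1 contributed 7 to 12 events per crowded locus (median 9) and replicate 2 contributed 5 to 10 (median 8). In the other loci the counts ran between 0 and 9 in replicate 1 (median 5) and between 0 and 8 in replicate 2 (median 5), so that within a single replicate the crowded and the other loci overlapped. Replicate 1 had more events than replicate 2 at 23 crowded loci, fewer at 11 and the same number at 9.

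**Figure D1:**
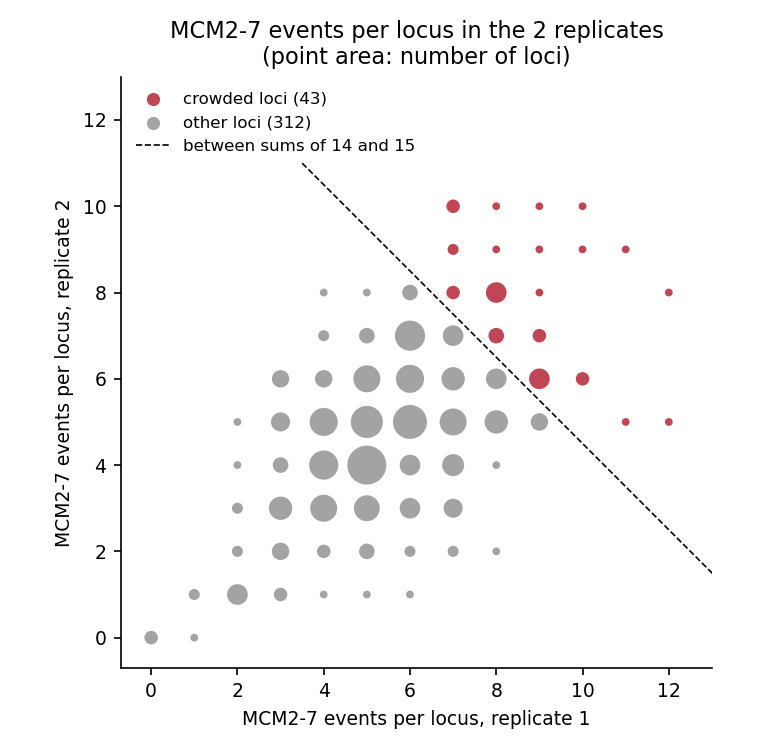
Number of MCM2-7 events per locus in replicate 1 (x axis) and replicate 2 (y axis), with the area of a point giving the number of loci. The 43 crowded loci (red) lie beyond the dashed line that separates sums of 15 and more from sums of 14 and fewer, with 7 to 12 events in replicate 1 and 5 to 10 in replicate 2, and the 312 other loci (grey) run up to 9 and 8 events.

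Because both replicates entered the choice, each was also read on loci chosen in the other alone. The 58 loci with 8 or more MCM2-7 events in replicate 1 had a median of 6 events in replicate 2, and 16 of them reached 8 there. The 297 loci with fewer than 8 in replicate 1 had a median of 5 in replicate 2. The 30 loci with 8 or more events in replicate 2 had a median of 8 in replicate 1, against 5 at the 325 loci with fewer. Of the 58 and 30 loci chosen in this way, 35 and 24 were among the 43 crowded loci.

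The threshold divides loci that are nearly alike. The 14 loci at exactly 15 events had a median span of 394 bp (310 to 448) and medians of 8.5 and 6.5 MCM2-7 events in replicates 1 and 2. The 23 loci at 14 events had a median span of 391 bp (250 to 436) and medians of 8 and 6 events. ORC events in G2-phase, summed over both replicates, had a median of 9.5 at the loci with 15 MCM2-7 events and of 12 at those with 14. The first locus at 15 events in genome order was ARS102 (chrI:537-984), 760 bp from the left end of chromosome I, with 9 and 6 MCM2-7 events. The first at 14 was ARS108 (chrI:147374-147742), with 9 and 5. It covers the 62 bp between VPS8 and TFC3, and 13 of its 14 MCM2-7 events lie in these genes.

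The locus with the most events was ARS208 (chrII:237707-238099), which held 10 MCM2-7 events in each replicate within 393 bp. It lies in the 1473 bp between ECM15 and NTH2, a gene for a trehalase, and its midpoint is 304 bp from the centromere of chromosome II. Its ORC events numbered 4 and 5 in the G1 lists and 9 and 5 in the G2 lists. ARS601/ARS602 (chrVI:32532-33155) was the widest crowded locus, with 624 bp, and the only crowded locus that contains 2 annotated ARSs. It held 11 and 9 MCM2-7 events, 5 and 10 ORC events in G1 and 6 and 1 in G2, in the 2731 bp between YFL051C and ALR2.

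ARS1220 (chrXII:659688-660101), with its midpoint between YLR257W and GSY2, a gene for glycogen synthase, and 104 bp in YLR257W, held 12 and 8 MCM2-7 events, and no crowded locus had more than its 12 MCM2-7 events in a single replicate. It also held the most ORC events in G2 of the crowded loci, 13 and 7, against 5 and 4 in G1. Across its 414 bp the MCM2-7 events of replicate 1 ran between 187 bp left and 207 bp right of the midpoint, and 9 of the 12 were on the right side. ORC events in G2 were spread over nearly the same stretch, between 194 bp left and 131 bp right in replicate 1.

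ARS434 (chrIV:1276105-1276479) held 10 and 9 MCM2-7 events but 2 and 2 ORC events in G1, with 7 and 3 in G2. Its midpoint lies in the 441 bp where DIT1, a gene of spore wall synthesis, and RPB7, a subunit of RNA polymerase II, converge, and 108 bp of the locus with 6 of its 19 MCM2-7 events lie in DIT1. ARS1226 (chrXII:793989-794428) held 9 and 10 MCM2-7 events with 6 and 7 ORC events in G1 and 8 and 6 in G2. ARS1407 (chrXIV:89543-89965), next to SNR40, a small nucleolar RNA gene, held 9 and 9 MCM2-7 events with 6 and 9 ORC events in G1 and 5 and 5 in G2. The number of ORC events thus differed widely among loci with nearly the same number of MCM2-7 events.

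ARS313 (chrIII:194162-194523) held 8 and 10 MCM2-7 events in a locus of 362 bp that is wider than the 115 bp between the converging genes RBK1 and PHO87, so that 15 of the 18 events lie in these genes. ARS1507 (chrXV:72502-72915), with 9 and 8 MCM2-7 events, has its midpoint inside GAS4, a gene of spore wall assembly, and 10 of its 17 events lie in this gene. It was 1 of 2 crowded loci with the midpoint in a gene, the other being ARS1323 in YMR175W-A, which is named here because it completes this count. ARS230 (chrII:28810-29219) held 7 and 10 MCM2-7 events with 7 and 4 ORC events in G1 and 9 and 3 in G2. The narrowest crowded locus was ARS443 (chrIV:1461844-1462141), in which 7 and 9 MCM2-7 events stood within 298 bp.

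**Figure D2:**
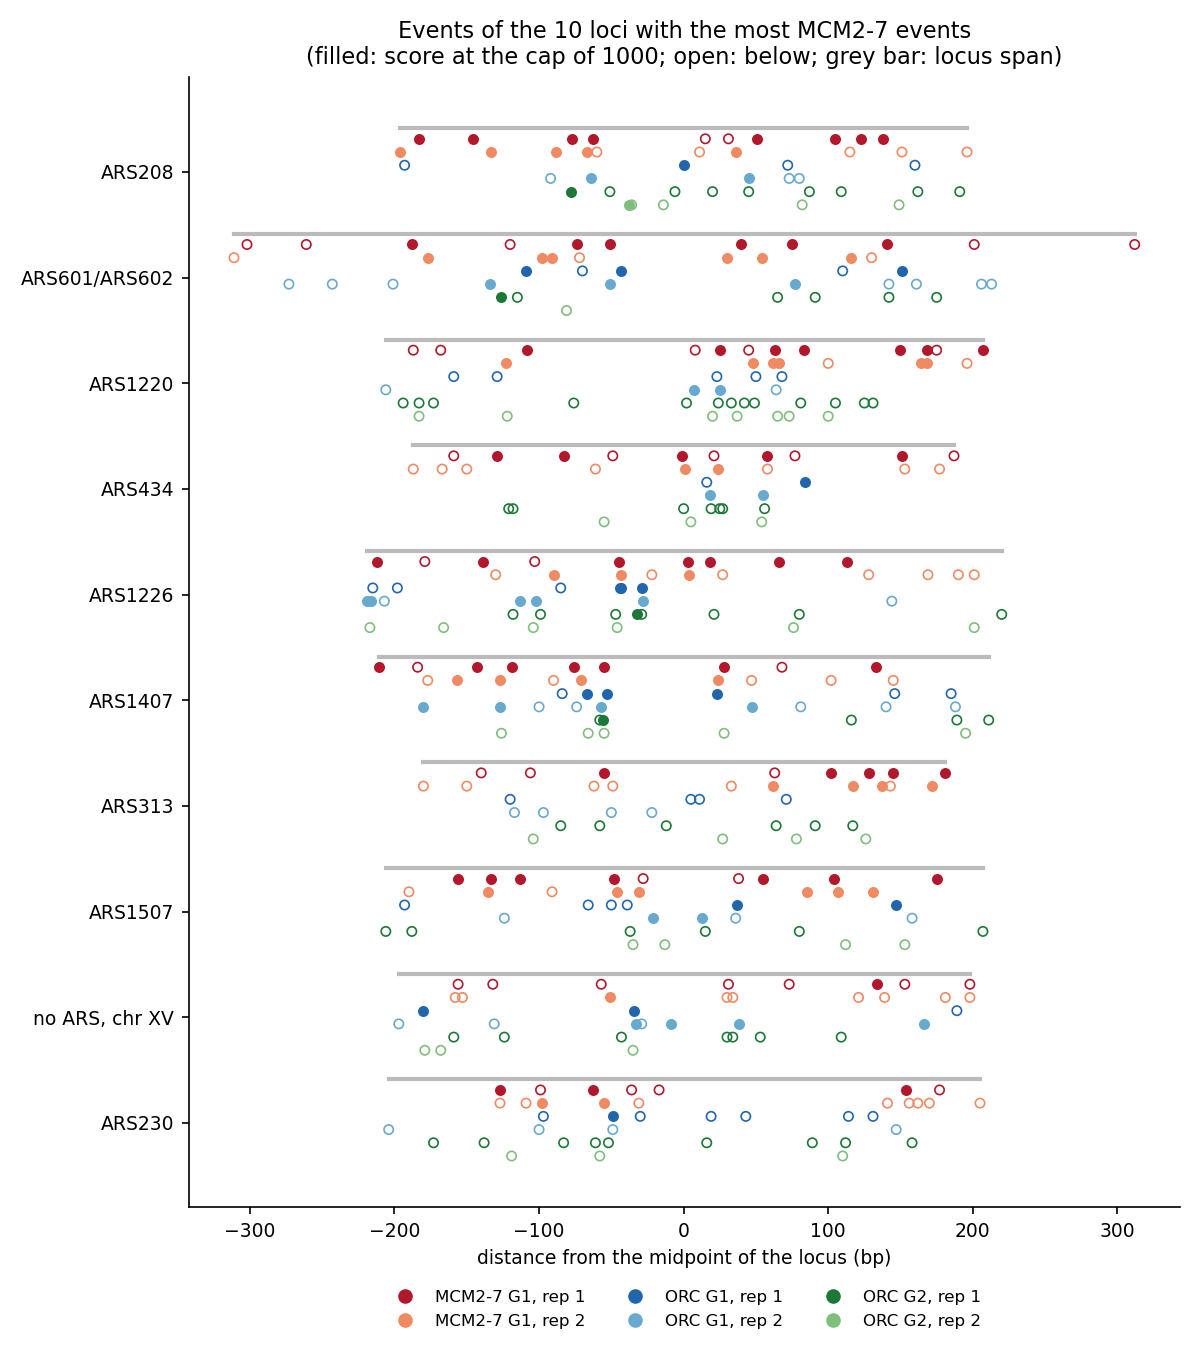
Position of every event (x axis, distance from the midpoint of the locus in bp) at the 10 loci with the most MCM2-7 events, 1 row per list and 6 rows per locus, where filled points have a score at the cap of 1000 and open points a lower score. MCM2-7 events are the outermost at both ends of 4 of the 10 loci, the bar of ARS601/ARS602 is the longest at 624 bp, and at ARS1220 most MCM2-7 events lie right of the midpoint.

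At 8 of the 43 crowded loci no ARS is annotated in R64. With 8 and 9 MCM2-7 events, chrXV:681164-681559, with its midpoint between SNR36 and GSP2, a Ran GTPase gene, and 7 of its 17 events in GSP2, was the only one of them among the 10 loci taken as those with the most events. Of 6 loci tied at 17, 3 were taken by the higher count in the replicate with fewer events and then by position. It had the fewest MCM2-7 events at the score cap of 1000 among these 10 loci, 1 in each replicate. At chrXV:436708-437084 beside ASE1, a gene for a microtubule-binding protein of the spindle midzone, 10 and 6 MCM2-7 events were listed with the fewest ORC events in G2 of any crowded locus, 2 and 1, all 3 of which were at the cap. In G1 this locus had 4 and 3 ORC events. Few ORC events thus did not go with low scores at this locus.

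The remaining 6 without an annotated ARS differed in their ORC events. At chrXI:530486-530875 (TRK2 and HFL1) 9 and 6 MCM2-7 events stood with 3 and 3 ORC events in G1 and 4 and 0 in G2. At chrXVI:317337-317755, over the 124 bp between the converging genes SPC29 and RNY1 and into both, there were 8 and 8 MCM2-7 events, 12 of the 16 inside the genes, 2 and 5 ORC events in G1 and 7 and 0 in G2. At chrXII:821909-822311, across the 246 bp between the converging genes YLR345W and CIS1, 8 and 8 MCM2-7 events, 8 of the 16 inside the genes, stood with 4 and 2 ORC events in G1 and 3 and 1 in G2, and the highest ORC score there was 136 and 70 in the G2 lists. These loci therefore had MCM2-7 events in both replicates while ORC events in G2 were absent from 1 list or had low scores.

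At chrII:802161-802551, between the maltose genes MAL33 and MAL31, 7 and 10 MCM2-7 events stood with 3 and 2 ORC events in G1 and 7 and 3 in G2. The locus chrVIII:45589-46009 (ECM29 and OCA5, with 7 of its 16 MCM2-7 events in these genes) had 10 and 6, with 4 and 3 in G1 and 5 and 2 in G2. Near the left end of chromosome XVI, chrXVI:6972-7385 (YRF1-7 and PAU22) had 11 and 5, with 6 and 3 in G1 and 4 and 4 in G2. Members of the YRF1 and PAU families near chromosome ends have close copies elsewhere in the genome, and reads that fit several copies equally well cannot be assigned to 1 of them with certainty, so the events there are less certain. The same limit applies to ARS102, which lies beside PAU8 and 760 bp from the end of chromosome I. Whether other crowded loci near chromosome ends, such as chrII:802161-802551, ARS824 and ARS1632, share it was not checked.

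The other 23 crowded loci, listed here to account for every member, were ARS217 on chromosome II, ARS404, ARS405, ARS420, ARS422, ARS425, ARS430 and ARS440 on chromosome IV, ARS512 on chromosome V, ARS707 and ARS719 on chromosome VII, ARS824 on chromosome VIII, ARS1009 and ARS1021 on chromosome X, ARS1127 and ARS1112 on chromosome XI, ARS1206 and ARS1215 on chromosome XII, ARS1303 on chromosome XIII, ARS1410 on chromosome XIV, and ARS1607, ARS1631 and ARS1632 on chromosome XVI. Together with ARS102 and ARS1323 they held 15 to 17 MCM2-7 events each.

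Crowded loci were slightly wider than the others. Their span, measured over the events of all 6 lists, had a median of 396 bp (298 to 624), against 365 bp (1 to 797) at the other loci, and part of this follows from holding more events. By number of MCM2-7 events the median span was 331 bp at 59 loci with 1 to 7 events, 364 bp at 162 with 8 to 11, 382.5 bp at 88 with 12 to 14 and 396 bp at the 43 with 15 to 20. The distance between the outermost MCM2-7 events of a list had a median of 339 bp in replicate 1 and 315 bp in replicate 2 at crowded loci, against 236 and 207.5 bp at other loci.

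Neighbouring MCM2-7 events of a list lay slightly closer together at crowded loci. The gap had a median of 37.5 bp in replicate 1 (quartiles 23 and 57.75) and 30 bp in replicate 2 (19 and 64), against 41 bp (21 and 64) and 35 bp (19 and 75.75) at other loci. More than 50% of the gaps in either set were thus shorter than the stretch of DNA that a DH covers. Events were therefore also counted so that neighbours stood 64 bp or more apart, about the length of a DH footprint. Room for 4 or more such events was present in replicate 1 at 39 of 43 crowded loci (90.7%) and at 78 of 312 other loci (25.0%), and in replicate 2 at 25 (58.1%) and 46 (14.7%). Room for 5 or more was present at 16 and 6 crowded loci in replicates 1 and 2 and at 19 and 2 other loci. Gaps and room were measured on the same MCM2-7 events that chose the loci. These differences therefore follow in large part from the choice and are given as a description. An event list pools many cells, and how many DHs were loaded in 1 cell was not measured.

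The number of crowded loci depended on such close pairs. When events of 1 list up to 20 bp apart were joined, the crowded loci kept 10 to 17 MCM2-7 events (median 13) and the other loci 0 to 14 (median 8), and 5 loci still reached 15. These were ARS601/ARS602 and ARS1226 with 17, ARS434 and ARS1407 with 16, and ARS420 with 15. ARS208 kept 5 of its 10 events in replicate 1 and 9 of 10 in replicate 2.

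The additional MCM2-7 events of crowded loci lay mainly away from the midpoint. More than 100 bp from it, a crowded locus had on average 4.44 and 3.86 events in replicates 1 and 2, against 1.92 and 1.67 at other loci. Within 100 bp the means were 4.23 and 3.79, against 3.23 and 2.79. In shares, 51.2% and 50.5% of the MCM2-7 events of crowded loci lay more than 100 bp out, against 37.3% and 37.4% in other loci. The midpoint is that of the events of all lists, and a wider locus has more room far from it.

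ORC events did not enter the count of 15, but they help set the ends and the midpoint of a locus. They showed a smaller difference of the same direction in all 4 lists. Here too the wider crowded loci have more room far from the midpoint. More than 100 bp from the midpoint lay 35.1% and 34.6% of the ORC events in G1 at crowded loci, against 31.0% and 31.0% at other loci. In G2 these shares were 39.1% and 35.2% at crowded loci, against 34.5% and 26.7% at other loci. In each list the Wilson intervals of the 2 sets overlapped (for G1 replicate 1, 28.4 to 42.4 at crowded loci and 28.2 to 34.0 at other loci).

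**Figure D3:**
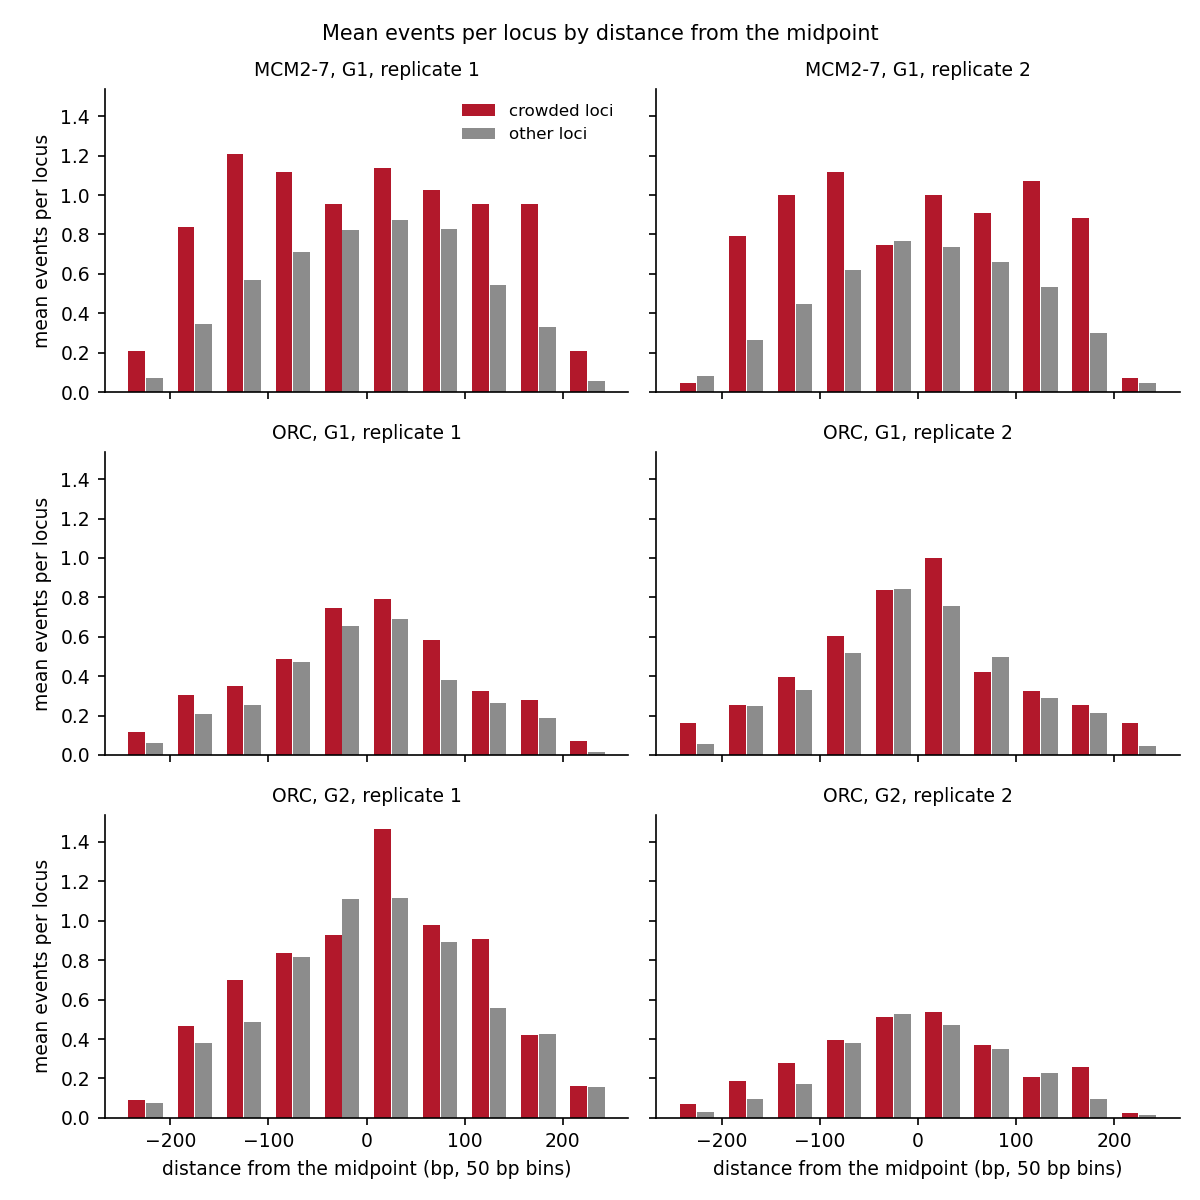
Mean number of events per locus (y axis) in bins of 50 bp by distance from the midpoint (x axis, bp), 1 panel per list, for crowded (red) and other loci (grey). MCM2-7 events of crowded loci stay between 0.744 and 1.21 per bin out to 200 bp on both sides, while those of other loci fall off on either side of the midpoint, and ORC events are highest near the midpoint in both sets.

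The score was used only within a list, because its definition is not given in the sources used here and many events share the cap of 1000. In the crowded loci 60.6% of the MCM2-7 events of replicate 1 and 50.2% of those of replicate 2 were at the cap, against 58.8% and 52.4% in the other loci. The replicates differed in direction. Crowding was therefore not accompanied by a shift in the overall share of MCM2-7 events at the cap that both replicates shared.

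The share at the cap was also read by distance. Within 100 bp of the midpoint, 63.7% and 59.5% of the MCM2-7 events of crowded loci were at the cap, against 67.6% and 62.6% in other loci. Farther out the order turned round: 57.6% (110 of 191 events, 95% Wilson interval 50.5 to 64.4) and 41.0% (68 of 166, 33.8 to 48.6) were at the cap in crowded loci, against 44.0% (264 of 600, 40.1 to 48.0) and 35.2% (184 of 522, 31.3 to 39.4) in other loci. In replicate 1 these intervals do not overlap and in replicate 2 they do, and as events of 1 locus are not independent the intervals cover counting error only.

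**Figure D4:**
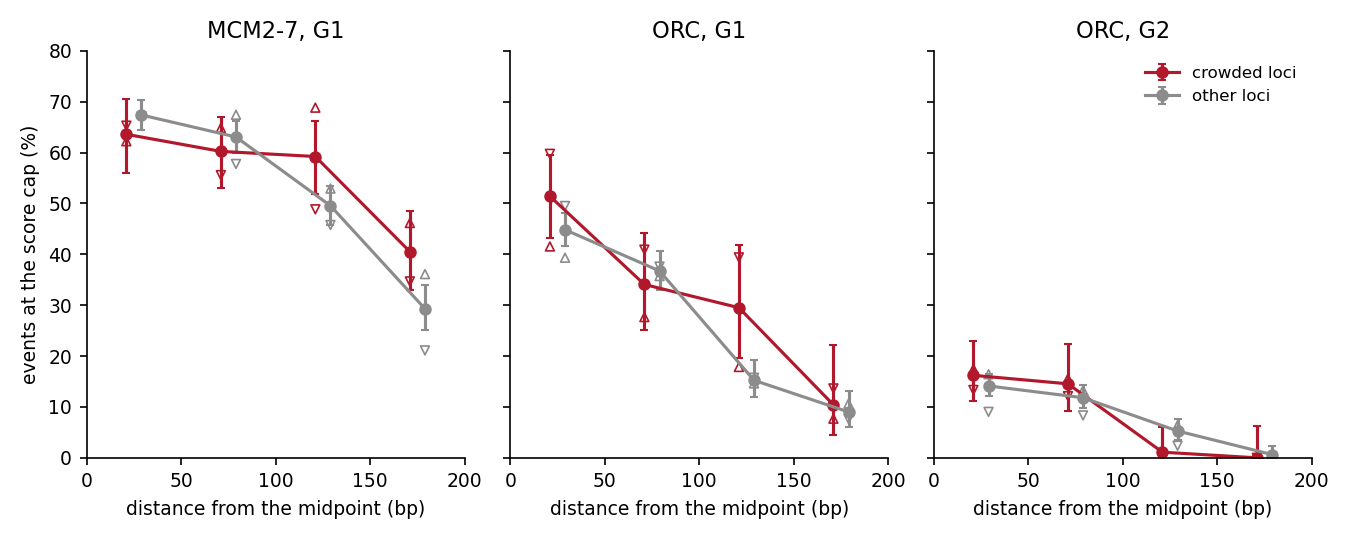
Share of events at the score cap (y axis, percent) by distance from the midpoint (x axis, bp, bins of 50 bp) for MCM2-7 in G1 and ORC in G1 and G2, with filled points and 95% Wilson intervals for both replicates together and open triangles for replicate 1 (up) and replicate 2 (down). Between 100 and 150 bp, 59.2% of the MCM2-7 events were at the cap in crowded loci (red) and 49.5% in other loci (grey), and ORC events in G2 had few events at the cap at this distance in either set.

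MCM2-7 events of the 2 replicates lay near each other more often at crowded loci, where there are more events to meet. An event of replicate 2 lay within 50 bp of 92.2% of the events of replicate 1 (344 of 373), and an event of replicate 1 within 50 bp of 97.3% of those of replicate 2 (320 of 329), against 85.8% and 90.6% in other loci. An ORC event of either G1 list lay within 50 bp of 78.8% and 79.6% of the MCM2-7 events of crowded loci in replicates 1 and 2, against 81.1% and 80.9% in other loci. For ORC in G2 these shares were 84.5% and 87.8%, against 85.6% and 86.4%. In each list and phase the Wilson intervals of the crowded and the other loci overlapped.

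Crowded loci had somewhat more ORC events than other loci in every list by their mean, and in 3 of the 4 lists by their median. In G1 the medians were 4 and 4 events per crowded locus in replicates 1 and 2, against 3 and 4 per other locus, and the means were 4.05 and 4.44 at crowded loci and 3.19 and 3.81 at other loci. In G2 the medians were 7 and 3, against 6 and 2, and the means were 6.95 and 2.84 at crowded loci and 6.02 and 2.37 at other loci. The ranges overlapped throughout, for example 2 to 13 at crowded loci and 0 to 15 at other loci in G2 replicate 1. Per 100 bp of span the medians were 0.993 and 0.978 events in G1 and 1.79 and 0.711 in G2 at crowded loci. At other loci they were 0.908 and 1.05 in G1 and 1.65 and 0.662 in G2. In G1 the replicates thus did not share a direction once the span was taken into account. In G2 the direction differed between median and mean. The G2 means per 100 bp were 1.81 and 0.723 at crowded loci and 2.18 and 0.746 at other loci, where a single locus reached 100 in replicate 1.

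**Figure D5:**
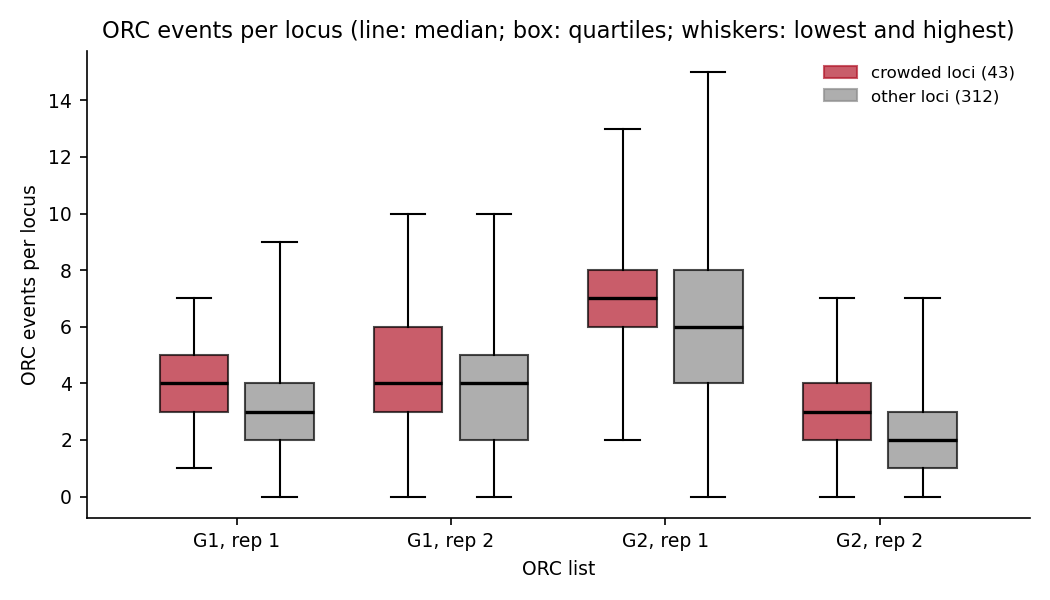
ORC events per locus (y axis) in the 4 ORC lists at crowded (red, left) and other loci (grey, right), with the median, quartiles and full range. The medians are 4, 4, 7 and 3 at crowded loci and 3, 4, 6 and 2 at other loci, and G2 replicate 1 has more events than G2 replicate 2 in both sets.

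An event was present in all 6 lists at 40 of the 43 crowded loci and at 282 of the 312 other loci. The 3 crowded loci that missed a list were ARS1410, with no ORC event in G1 replicate 2, and chrXI:530486-530875 and chrXVI:317337-317755, with none in G2 replicate 2, the shortest list. Every crowded locus thus had ORC events in both phases in at least 1 replicate. ORC events in G2 outnumbered MCM2-7 events at 1 crowded locus, ARS1021, with 16 against 15, and at 95 other loci. Crowded loci were chosen for 15 or more MCM2-7 events, so this contrast follows in large part from the choice.

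To ask whether ORC was placed in the crowded loci more in 1 phase than in the other, the share of each ORC list that lay in them was compared, since the lists differ in length. In G1 it was 14.9% in replicate 1 (174 of 1170 events, 95% Wilson interval 12.9 to 17) and 13.9% in replicate 2 (191 of 1379, 12.1 to 15.8). In G2 it was 13.7% in replicate 1 (299 of 2178, 12.3 to 15.2) and 14.2% in replicate 2 (122 of 861, 12 to 16.7). The means were 14.4 ± 0.722% in G1 and 13.9 ± 0.312% in G2 (SD, n = 2 each), a difference of 0.412 percentage points that was within the spread between replicates (two-sided exact permutation test over the 4 libraries, p = 0.667). With 2 libraries per phase the smallest p this test can give is 0.333, so it could not have passed a threshold of 0.05. The direction turned round without G1 replicate 1 (a difference of -0.0983 points).

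The midpoint lay outside genes at 41 of 43 crowded loci (95.3%, 95% Wilson interval 84.5 to 98.7) and at 296 of 312 other loci (94.9%, 91.8 to 96.8). Where both neighbouring genes are known, they converged at 14 of 40 crowded loci (35.0%) and 103 of 292 other loci (35.3%), diverged at 5 (12.5%) and 53 (18.2%), and pointed the same way at 21 (52.5%) and 136 (46.6%). Of single events, 145 of the 702 MCM2-7 events of crowded loci (20.7%) and 413 of the 3003 of other loci (13.8%) lay in genes. Events of 1 locus are not independent, and some loci hold many of the 145, for example 15 at ARS313 and 12 at chrXVI:317337-317755. What sets this difference was not tested. No base of the locus was in a gene at 19 of 43 crowded and 157 of 312 other loci. The distance between the neighbouring genes had a median of 675.5 bp at crowded loci and 653.5 bp at other loci. An ARS was annotated at 35 crowded loci (81.4%) and at 246 other loci (78.8%). The AT content of the locus had a median of 67.5% (60.8 to 75.9) at crowded loci and 68.5% (53.1 to 100) at other loci, where 100% comes from a locus that is a single base long.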

How the data were processed

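ChIP-Exo reads were aligned by the authors to the yeast genome with the default settings of Bowtie2 (version 2.3.5), using R64 (sacCer3), and events were called with ChExMix on each replicate, without motif discovery and with tRNA genes and the rDNA left out. The deposited lists give the position of each event and the authors' score, a whole number up to a cap of 1000 that is not normalized between lists. Removal of duplicate reads is not stated in the sources used here. No read counts come with the events, and how many reads stand behind each of them is unknown. The study gives a typical and a minimum depth rather than a depth for each library, and the total is given here as events per list. The 2 libraries of Orc2 24 min after release were not analysed here.

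From the lists, events were chained (250 bp) and counted. ARSs, genes and centromeres were read from the RefSeq annotation of R64. For the shares of loci the ACS was searched on both strands in 300 bp windows. The printed matches were not limited to these windows. A locus of 1 list is described over its events, the gap is the distance between neighbours, and shares have 95% Wilson intervals. Crowded and other loci were set side by side without a test, because the loci were chosen on their MCM2-7 events. The only test was a two-sided exact permutation test over the 4 ORC libraries, with a threshold of 0.05. Members, lists and alternatives were chosen with earlier results of these data known. Loci are named if they are among the 10 with the most MCM2-7 events, have the widest or narrowest span or the most or fewest ORC events in G2, lack an annotated ARS, or are the first at 15 or 14 events (ties by the higher count in the replicate with fewer events, then by position), and exceptions are marked. Alternatives were chaining at 150 and 400 bp, thresholds of 12 and 18, chaining on MCM2-7 lists alone, joining of events up to 20 bp apart, events with at least the median score of a list, each library left out, the replicate block, and distances of 25 and 100 bp. Functions were tested on simulated lists. Python 3.11.15, NumPy 2.4.6, pandas 2.3.3 and Matplotlib 3.10.9 were used.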

Additional observations from a re-analysis of the deposited data

How the results depend on the processing

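The number of crowded loci was 43 with chaining at 150 bp and on the MCM2-7 lists alone and 44 at 400 bp, and all 43 loci were kept each time. It was 131 at a threshold of 12 events and 7 at 18 events. It was 5 with events of 1 list up to 20 bp apart joined, and 0 when events under their list's median score were left out, a filter that keeps MCM2-7 events at the cap and no others. With a single MCM2-7 replicate and 8 or more events it lay between 30 and 58. Joining and the score filter leave fewer events to set against the same threshold.

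The difference in the ORC share of crowded loci, G1 minus G2, kept its direction in 10 of 13 alternatives. Among these 10, chaining at 150 bp and on the MCM2-7 lists alone kept the same 43 loci and the same value. The replicate block could not change the value either. The difference was -0.186 percentage points at a threshold of 18 events. It lay between -0.420 and 1.02 points when a library was left out. It was -0.420 without MCM2-7 replicate 2 and -0.0983 without ORC G1 replicate 1. The cause was not tested. The exact p lay between 0.333 and 1 and could not pass the threshold in any of them. No label states that a replicate number marks a shared culture, and with 2 numbers the pairing could not be checked. With the replicate block the difference was 0.412 points by construction, as it averages the same lists (1.14 between the lists numbered 1 and -0.319 between those numbered 2, exact sign-flip p = 1). It could not be computed under the score filter, which left no crowded locus.

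Under the alternatives, 44 values for span, gaps, scores, ORC events and distances were read, all as crowded minus other loci. Of these, 33 moved by less than the spread between replicates (for span, between loci) and 11 moved by more. None that had the same sign in both replicates changed it. The span of crowded loci had an SD of 52.9 bp, more than the main difference of 31 bp. A span difference of 12 bp without MCM2-7 replicate 1 was therefore among the 33. The difference in the share at the cap had opposite signs in the replicates. It was -0.210 points in the main setting and ran between -1.79 and 2.13, all among the 33. For span and cap share, with 8 alternatives each, the count cannot tell whether the difference held. The gap between neighbouring MCM2-7 events moved by more than the spread between replicates in 4 of 8 alternatives. Its difference was -4.25 bp in the main setting and -9.25 bp with close events joined. It was -1.5 bp at a threshold of 12, -3 bp without MCM2-7 replicate 1 and -1.5 bp without replicate 2. The lists do not give the depth behind an event, so an event missing from a list was not detected there rather than absent.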

Other observations

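Crowded loci were found on 15 of the 16 chromosomes. Chromosome IV held 9 of its 46 loci, chromosomes XII and XVI held 5 each (of 26 and 29), chromosome II held 4 of 27, and chromosome IX held 0 of 16. Within 20000 bp of a chromosome end lay 6 of 43 crowded loci (14%, 95% Wilson interval 6.56 to 27.3) and 37 of 312 other loci (11.9%, 8.73 to 15.9). Of these 6, ARS102 was 760 bp, ARS1632 was 5606 bp and ARS824 was 6508 bp from the end, named here after their values were seen. Within 20000 bp of the centromere lay 2 crowded loci (4.65%, 1.28 to 15.5), ARS208 at 304 bp and ARS719 at 11769 bp, against 30 other loci (9.62%, 6.82 to 13.4). The median distance to the centromere was 278979 bp at crowded loci and 201411 bp at other loci, with overlapping quartiles.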
